A study of Mus musculus with 64 samples.

Results

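Insulin signalling and gluconeogenesis in mouse liver were followed through 9 genes, Insr, Irs1, Irs2, Foxo1, Pck1, G6pc, Pcx, Igfbp1 and Igfbp2. They are the rows of the deposited count table whose gene name equals 1 of these symbols, and all 9 were found among its 53008 gene names. All 9 passed the filter on low counts, as did 17318 genes in all. The choice rests on gene function and used no measured value, but it was made with earlier results of these data known.

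Liver RNA was sequenced in 16 libraries, 4 from each of 4 groups of mice. Wild-type (WT) and HuMgat2 mice each ate chow or a high-fat diet (HFD) for 16 weeks. HuMgat2 mice are humanized and express human MOGAT2, an acyltransferase that joins a fatty acid to monoacylglycerol on the way to triglyceride. The labels used here do not state the promoter or the cells that drive the human gene, nor the sex, age, fasting state or hour of collection of any mouse.

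Insulin reaches the hepatocyte from the portal vein and binds its receptor, Insr, a tyrosine kinase that phosphorylates the adaptors Irs1 and Irs2. These recruit phosphoinositide 3-kinase, which leads to the kinase AKT, and AKT phosphorylates the transcription factor Foxo1 and thereby keeps it out of the nucleus. When insulin is low, nuclear Foxo1 raises the transcription of Irs2, Igfbp1 and the gluconeogenic enzymes Pck1 and G6pc, whereas glucagon raises Pck1 and G6pc through cAMP.

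The promoters below show where matches to 2 regulatory motifs lie before some of these genes. Each is the 250 bases before a RefSeq transcription start on the mouse build GRCm38.p6, read 5′ to 3′ on the gene's own strand. This build differs from the GRCm39 build of the counts, so the coordinates of the 2 are not exchangeable. Of the 9 genes, 8 had a RefSeq promoter entry and Insr did not. Capitals mark CAAAACA on either strand (TGTTTTG when it lies on the other strand), the core of the insulin response sequence bound by FOXO proteins, and in Pck1 ACGTCA on either strand, a core of the cAMP response element. The 5 promoters holding a match are shown, chosen by the match alone. Those of Igfbp2, Foxo1 and Pcx held no match, and a link between a match and the response to diet was not tested.
Igfbp1, chr11:7197537-7197786, plus strand: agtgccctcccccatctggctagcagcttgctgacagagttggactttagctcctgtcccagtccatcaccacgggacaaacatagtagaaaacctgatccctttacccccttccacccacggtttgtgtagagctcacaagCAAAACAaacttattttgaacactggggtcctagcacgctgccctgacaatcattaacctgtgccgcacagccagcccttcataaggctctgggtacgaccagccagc
G6pc, chr11:101367466-101367715, plus strand: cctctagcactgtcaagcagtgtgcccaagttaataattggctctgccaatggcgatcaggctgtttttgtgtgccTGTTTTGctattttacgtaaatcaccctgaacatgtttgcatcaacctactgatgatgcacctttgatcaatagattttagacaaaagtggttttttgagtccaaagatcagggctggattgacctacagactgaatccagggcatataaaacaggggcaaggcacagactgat
Irs1, chr1:82291440-82291689, minus strand: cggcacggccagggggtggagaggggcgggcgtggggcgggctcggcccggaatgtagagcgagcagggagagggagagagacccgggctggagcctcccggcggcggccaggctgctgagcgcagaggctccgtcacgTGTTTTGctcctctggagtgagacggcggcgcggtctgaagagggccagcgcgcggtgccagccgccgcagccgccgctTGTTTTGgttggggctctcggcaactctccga
Irs2, chr8:11008930-11009179, minus strand: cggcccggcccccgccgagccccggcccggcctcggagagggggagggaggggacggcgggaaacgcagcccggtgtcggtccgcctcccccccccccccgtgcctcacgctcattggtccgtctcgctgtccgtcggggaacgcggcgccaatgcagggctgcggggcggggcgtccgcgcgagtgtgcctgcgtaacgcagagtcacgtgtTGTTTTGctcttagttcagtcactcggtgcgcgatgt
Pck1, chr2:173152823-173153072, plus strand: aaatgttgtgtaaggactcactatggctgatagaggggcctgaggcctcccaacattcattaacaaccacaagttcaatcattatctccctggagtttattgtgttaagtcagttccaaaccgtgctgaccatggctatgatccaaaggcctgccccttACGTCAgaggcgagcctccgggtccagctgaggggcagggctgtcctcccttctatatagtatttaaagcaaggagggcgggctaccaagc
CAAAACA lay in the promoters of 4 of the 8 matched genes, with 2 copies in Irs1, and in 5.6% of all 32851 mouse promoters of this length. ACGTCA lay in Pck1 alone among the 8 matched genes and in 6.5% of all promoters. The 2 motifs share no overlapping match here. A match describes these letters and is not a measured binding site.

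The libraries held 12.4 to 25.8 M counted read pairs. WT HFD library 4 was the shallowest and stood apart: albumin (Alb) made up 0.8502% of its counts against 3.259% to 6.018% in the other 15, so several values below are also given without it. Hepatocyte markers dominated every library, with 7 markers summing to 46520 to 100800 CPM (counts scaled to library size), while the pancreatic marker Ins2 was at 0. Of the adipocyte markers, Lep stayed at or below 0.0448 CPM, while Cfd on HFD averaged 73.07 CPM (0.1589 to 129.9) for WT and 5.22 CPM for HuMgat2, against chow means of 0.2713 and 0.09092 CPM. Mouse Mogat2 had 0 to 12 counts per library in all 4 groups, which is too few to check the genotype labels, and human MOGAT2 was not analysed here. In whole liver, fewer cells of a type and less RNA per cell cannot be told apart.

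For 4 of the 9 genes, Irs1, Irs2, Igfbp2 and Pck1, the response to HFD differed between genotypes. The call for Pck1 was kept in 12 of 24 alternative analyses, and those for Irs1, Irs2 and Igfbp2 in 24 of 24. In WT liver on HFD, Irs1 and G6pc fell (2.62-fold and 2.17-fold) and Pcx and Foxo1 rose (1.54-fold and 1.4-fold), while Irs2, Pck1 and Igfbp2 did not pass the test. In HuMgat2 liver on HFD, Igfbp2, Pck1, Irs2 and Irs1 fell (3.98-fold, 2.37-fold, 2.13-fold and 1.34-fold) and Pcx rose (2.22-fold). The test was edgeR's quasi-likelihood test with p-values adjusted by Benjamini and Hochberg over all 17318 genes, with calls at an adjusted p below 0.05. Read against the background, 2 of the 9 genes were higher and 2 lower in WT on HFD, where 8.37% of all tested genes were higher and 6.74% lower. In HuMgat2 on HFD 1 was higher and 4 were lower, where 7.56% of all genes were higher and 6.4% lower.

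Between genotypes 5 of the 9 genes differed on HFD and 0 on chow. On chow 0 of 9 were called, against 0.266% of all genes higher and 0.243% lower in HuMgat2, and at an unadjusted p below 0.05 Irs1 was lower (log2 change -0.28, p = 0.0454) and Foxo1 higher (0.31, p = 0.0265). DESeq2 and limma also called 0 of the 9 on chow. On HFD, Irs1 and Pcx were higher in HuMgat2 than in WT liver (1.61-fold and 1.31-fold) and Igfbp2, Irs2 and Pck1 were lower (4.68-fold, 2.26-fold and 2.01-fold). That made 2 of 9 higher and 3 of 9 lower, against 7.21% and 7.56% of all genes. The diet effect itself differed between genotypes for 4 genes, Irs1 with the more positive effect in HuMgat2 and Irs2, Igfbp2 and Pck1 with the more negative one, against 2.61% and 2.26% of all genes. These comparisons reuse the same 4 groups, so they are not independent of each other.

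**Figure D1:**
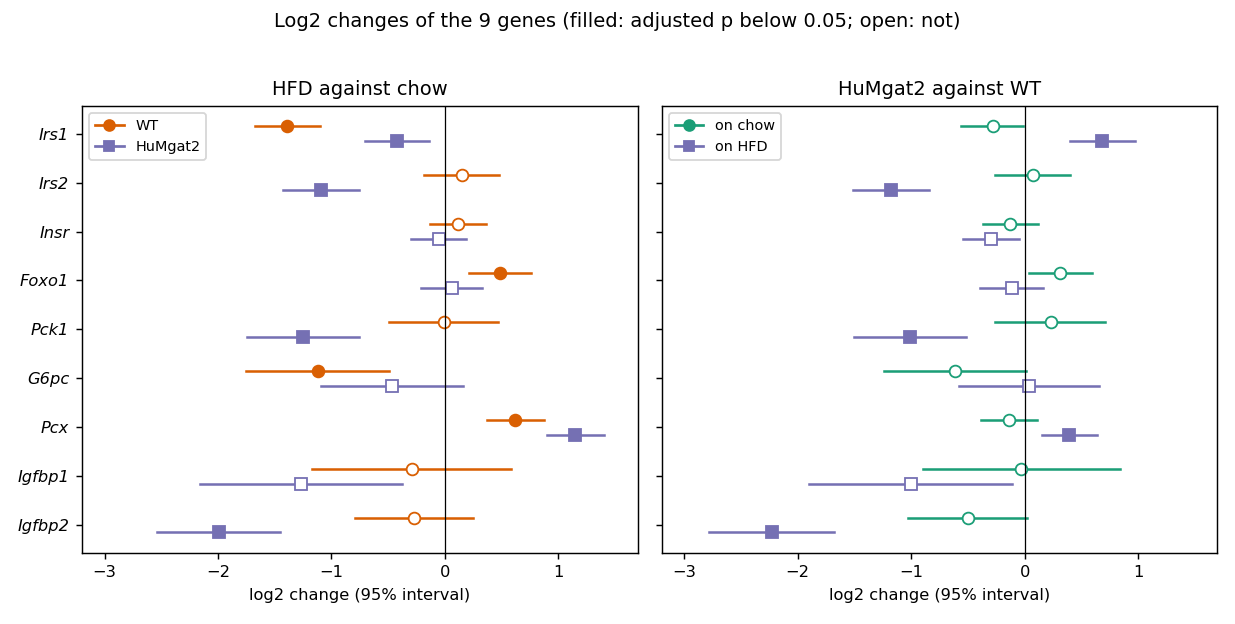
Log2 changes of the 9 genes on the x axis, for HFD against chow in each genotype (left) and HuMgat2 against WT on each diet (right); points are fitted changes, lines 95% intervals, and filled points have an adjusted p below 0.05. On chow all genotype points are open, and the HFD points of Irs1 and Irs2 lie on opposite sides of 0, at 0.68 and -1.18.

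Per length, Pck1 was the most abundant of the 9 transcripts and Irs2 the least. Mean levels over the 16 libraries, as CPM per kilobase of unshared exon (FPKM), were 329.7 for Pck1, 116.1 for Pcx, 83.77 for G6pc and 61.24 for Igfbp2. They were 20.5 for Igfbp1, 18.41 for Insr, 8.608 for Foxo1, 7.68 for Irs1 and 5.344 for Irs2. Transcripts of the enzymes were thus above those of the signalling genes, and Insr transcript was above that of each of its 2 substrates. Unless FPKM is named, levels below are CPM scaled by TMM factors, which set the libraries to a common scale.

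**Figure D2:**
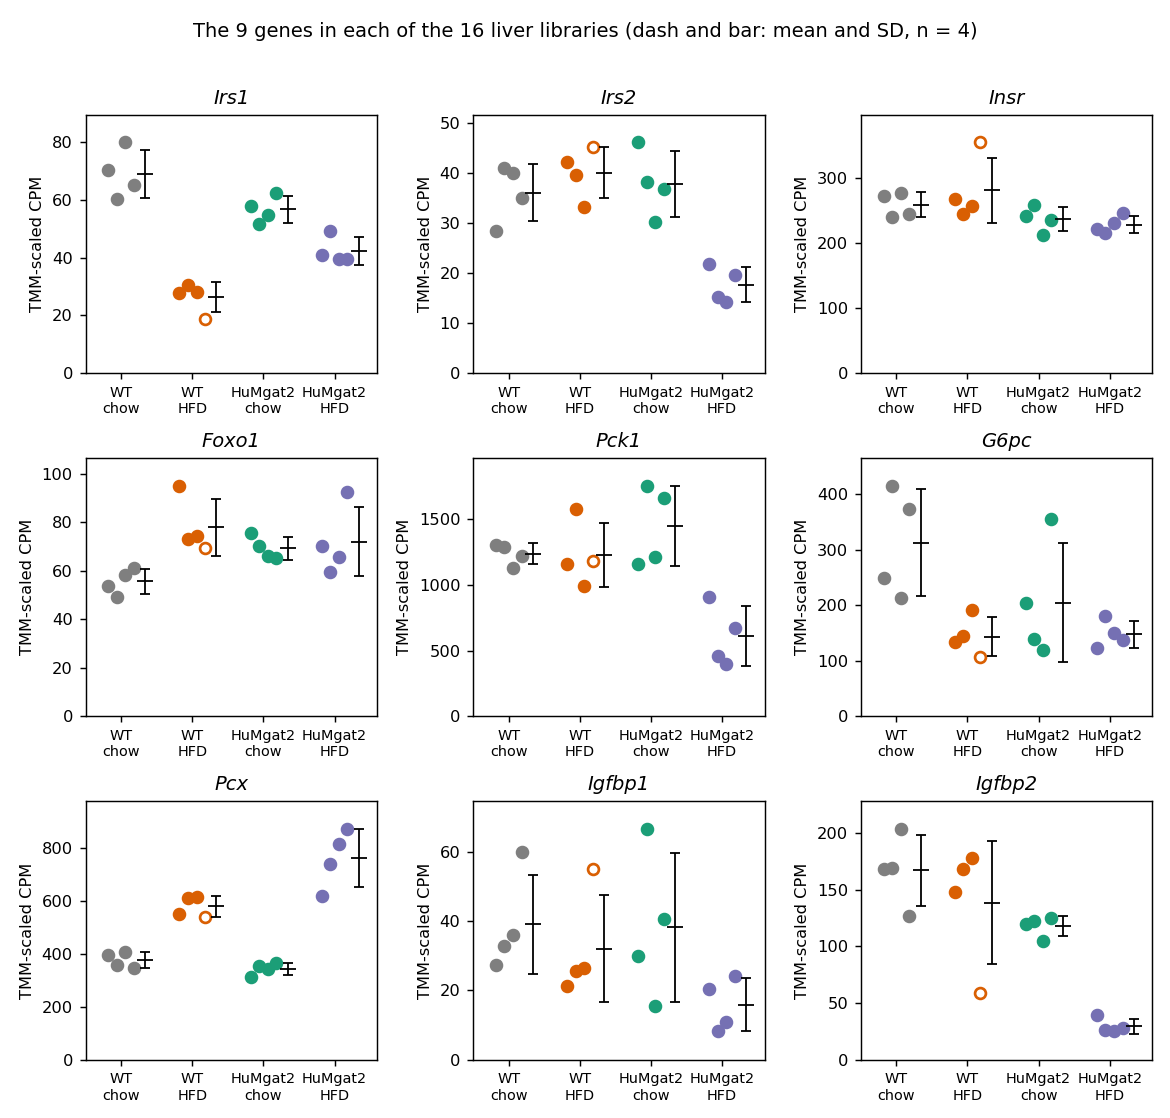
Levels of the 9 genes (y axes, TMM-scaled CPM, each from 0) in the 4 groups on the x axis, with 1 point per library, the mean and SD beside them (n = 4) and WT HFD library 4 as the open point. In HuMgat2 on HFD, Irs2 (14.24 to 21.77 CPM) and Igfbp2 (24.96 to 39.31 CPM) lie below all other libraries.

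Insr (ENSMUSG00000005534, GRCm39 chr8:3200922-3329617, minus strand) is the entry point of the pathway. Its level was 259 ± 18.8 CPM (SD, n = 4) in WT on chow, 281 ± 50.2 in WT on HFD, 236.9 ± 18.7 in HuMgat2 on chow and 228.4 ± 13.6 in HuMgat2 on HFD. The groups overlapped, and the wide spread in WT on HFD came from library 4, at 355 CPM. Insr passed the test in none of the 5 comparisons. Its largest log2 difference was -0.30 ± 0.12 (SE) for HuMgat2 against WT on HFD (adjusted p = 0.0896), which was -0.17 without library 4. The 95% interval of its diet effect ran from -0.13 to 0.36 in WT and from -0.30 to 0.19 in HuMgat2 on the log2 scale.

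Irs1 (ENSMUSG00000055980, chr1:82210822-82269137, minus strand), an adaptor of the receptor, was read at 70.35, 60.43, 79.93 and 65.2 CPM in WT on chow and at 27.65, 30.67, 27.96 and 18.67 CPM in WT on HFD. Every WT library on HFD lay well below every WT library on chow. The fall was 2.62-fold (log2 change -1.39 ± 0.13, adjusted p = 2.23e-05), and -1.26 on the log2 scale without library 4, the lowest of the group. HuMgat2 livers held 57.92, 51.47, 54.83 and 62.54 CPM on chow and 40.86, 49.35, 39.5 and 39.53 CPM on HFD. These groups too did not overlap, but the gap was small, from 49.35 to 51.47 CPM.

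The fall of Irs1 in HuMgat2 liver was 1.34-fold (log2 change -0.42 ± 0.13, adjusted p = 0.0411), and this call was kept in 14 of 25 alternative analyses. It was lost with library totals in place of TMM (-0.18, adjusted p = 0.356), with no filter on low counts (0.0785), with a mean of at least 1 CPM required (0.0532) and without mitochondrial, ribosomal RNA and hemoglobin genes (0.0657). It was also lost when 1 of 7 libraries was left out (WT chow 5, HuMgat2 chow 13, 15 and 16, HuMgat2 HFD 9, 11 and 12; adjusted p = 0.0551 to 0.115). On HFD, HuMgat2 livers had 1.61-fold more Irs1 than WT livers (0.68 ± 0.13, adjusted p = 0.00289), with no overlap. The diet effect was less negative in HuMgat2 than in WT by 0.97 ± 0.19 on the log2 scale (adjusted p = 0.0065), a call kept in 24 of 24 alternatives. Of its 9144 exon bases, Irs1 shares 2822 with Gm9747, a gene with 0 counts in every library. Pairs that map to both genes were not counted, so the CPM of Irs1 leave them out in every library. The 0 counts of Gm9747 therefore do not show that it is silent.

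Irs2 (ENSMUSG00000038894, chr8:11034681-11058458, minus strand), the adaptor whose transcription FOXO proteins raise and insulin lowers, showed the other pattern. WT livers held 28.44, 40.99, 39.94 and 34.95 CPM on chow and 42.31, 39.64, 33.22 and 45.2 CPM on HFD. These ranges overlapped, and the difference of 0.15 ± 0.16 on the log2 scale did not pass the test (adjusted p = 0.572; 95% interval -0.18 to 0.48). HuMgat2 livers held 46.17, 38.15, 30.18 and 36.75 CPM on chow and 21.77, 15.27, 14.24 and 19.58 CPM on HFD. The 4 HuMgat2 livers on HFD were the 4 lowest of the 16.

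Irs2 fell 2.13-fold on HFD in HuMgat2 liver (log2 change -1.09 ± 0.16, adjusted p = 0.000246) and was 2.26-fold lower than in WT liver on the same diet (-1.18 ± 0.16, adjusted p = 0.000156). The diet effect differed between genotypes by -1.24 ± 0.22 (adjusted p = 0.00376). All 3 calls were kept in every alternative analysis run.

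Set side by side per length, the 2 adaptors traded places in WT liver on HFD. The ratio of Irs1 to Irs2 FPKM was 1.44 to 2.41 in WT on chow and 0.402 to 0.82 in WT on HFD, the only group in which Irs2 exceeded Irs1 in all 4 libraries. In HuMgat2 livers the ratio was 1.22 to 1.77 on chow and 1.83 to 3.15 on HFD. The ratio therefore moved down with HFD in WT and up in HuMgat2, with no overlap between diets in either genotype. The ratio itself was not tested.

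**Figure D3:**
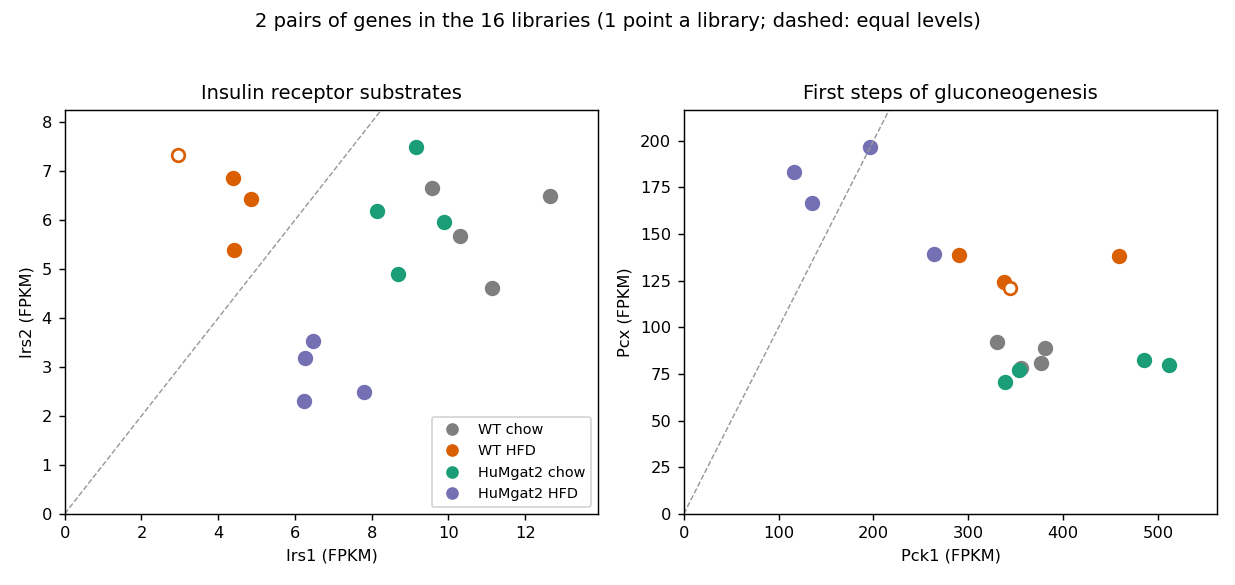
Irs2 against Irs1 (left) and Pcx against Pck1 (right), both axes in FPKM, with 1 point per library coloured by group, WT HFD library 4 open, and a dashed line of equal levels. On the left the WT HFD libraries lie above the line and the other 12 below it; on the right the HuMgat2 HFD libraries lie at the top left, with Pcx over Pck1 ratios of 0.528 to 1.58.

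Foxo1 (ENSMUSG00000044167, chr3:52175757-52260642, plus strand), the transcription factor that AKT inactivates, was read at 53.82, 49.46, 58.35 and 61.3 CPM in WT on chow and at 95.21, 73.1, 74.51 and 69.27 CPM in WT on HFD. The groups did not overlap. Foxo1 rose 1.4-fold (log2 change 0.49 ± 0.13, adjusted p = 0.0188). The call was lost with library totals (adjusted p = 0.062) and without WT HFD library 1, WT chow library 5 or WT chow library 6 (adjusted p = 0.0555, 0.0552 and 0.0758). HuMgat2 livers held 75.48, 70.3, 66.01 and 65.35 CPM on chow and 70.24, 59.75, 65.91 and 92.5 CPM on HFD, and the diet difference of 0.06 ± 0.13 did not pass the test (adjusted p = 0.818). The 2 diet effects were not shown to differ (-0.43 ± 0.18, adjusted p = 0.216). The counts measure Foxo1 transcript and not the phosphorylation or location of its protein.

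Among the gluconeogenic enzymes, Pcx (ENSMUSG00000024892, chr19:4560500-4671780, plus strand), the mitochondrial pyruvate carboxylase that makes oxaloacetate, rose on HFD in both genotypes. Levels in WT were 393.3, 357.6, 407.8 and 347.2 CPM on chow and 549.8, 610.8, 615.1 and 536.6 CPM on HFD. In HuMgat2 they were 311.9, 353, 340.6 and 364.1 CPM on chow and 617.7, 737.6, 811.6 and 870.6 CPM on HFD. The diets did not overlap in either genotype, and each HuMgat2 library on HFD lay above each WT library on HFD, by a gap as small as 615.1 to 617.7 CPM. The rise was 1.54-fold in WT (log2 change 0.62 ± 0.12, adjusted p = 0.00256) and 2.22-fold in HuMgat2 (1.15 ± 0.12, adjusted p = 1.39e-05).

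The 2 rises of Pcx were not shown to differ (0.53 ± 0.17, adjusted p = 0.0815), although 4 of 24 alternatives called the difference. The genotype difference on HFD, 1.31-fold (0.39 ± 0.12, adjusted p = 0.0335), was called in 18 of 25 alternatives. It was lost without WT HFD library 1 or 4 (adjusted p = 0.0626 and 0.0519) and without HuMgat2 HFD library 10, 11 or 12 (0.0623, 0.0848 and 0.101), in a fit of the 2 groups alone (0.0858) and with no filter on low counts (0.0562).

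Pck1 (ENSMUSG00000027513, chr2:172994841-173001066, plus strand), the cytosolic enzyme that turns oxaloacetate into phosphoenolpyruvate, went the other way in HuMgat2 liver. Levels there were 1161, 1755, 1211 and 1664 CPM on chow and 905.3, 462.3, 397.9 and 673.5 CPM on HFD. All HFD libraries lay below all chow libraries. The fall was 2.37-fold (log2 change -1.25 ± 0.23, adjusted p = 0.00182) and was called in 25 of 25 alternatives.

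In WT liver Pck1 was read at 1306, 1291, 1132 and 1221 CPM on chow and at 1158, 1574, 994.8 and 1181 CPM on HFD. The ranges overlapped, and the log2 difference was -0.01 ± 0.23 (adjusted p = 0.984; 95% interval -0.49 to 0.47). Compared on HFD, HuMgat2 livers had 2.01-fold less Pck1 than WT livers (-1.01 ± 0.23, adjusted p = 0.00818). The diet effects differed by -1.24 ± 0.32 (adjusted p = 0.037), but that call was kept in 12 of 24 alternatives. It was lost with library totals (adjusted p = 0.0815) and without any 1 of WT chow libraries 5 to 8, WT HFD libraries 1 and 2, HuMgat2 chow libraries 14 and 16, or HuMgat2 HFD libraries 10 to 12 (adjusted p = 0.0509 to 0.0853).

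Pcx and Pck1 catalyse consecutive steps, from pyruvate through oxaloacetate to phosphoenolpyruvate. In HuMgat2 liver on HFD their transcripts changed in opposite directions and came to similar mean levels, 171.5 FPKM for Pcx and 177.8 FPKM for Pck1. The ratio of Pcx to Pck1 FPKM was 0.156 to 0.218 in HuMgat2 on chow and 0.528 to 1.58 on HFD. In WT it was 0.215 to 0.279 on chow and 0.301 to 0.479 on HFD. The diets did not overlap in either genotype, and the ratios were not tested.

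G6pc (ENSMUSG00000078650, chr11:101258387-101268729, plus strand), the catalytic subunit of glucose-6-phosphatase that releases free glucose, was read at 248.9, 415.4, 213.8 and 373 CPM in WT on chow and at 133.4, 144.4, 191 and 106.4 CPM in WT on HFD. The groups did not overlap, and the fall was 2.17-fold (log2 change -1.12 ± 0.30, adjusted p = 0.0184). The call was lost without WT chow library 6 (-0.97, adjusted p = 0.059) or WT chow library 8 (-1.03, adjusted p = 0.0505). HuMgat2 livers held 203.8, 138.5, 119.6 and 355.3 CPM on chow and 124, 180.9, 150 and 137 CPM on HFD. Here the chow libraries spread over the whole range of the HFD libraries and beyond, and the difference of -0.47 ± 0.29 did not pass the test (adjusted p = 0.33; 95% interval -1.09 to 0.16).

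G6pc and Pck1, both classical FOXO1 and cAMP targets, thus passed the diet test in different genotypes. For G6pc the diet effects were not shown to differ between genotypes (0.65 ± 0.41, adjusted p = 0.432), and on HFD its level ranged from 106.4 to 191 CPM in WT and from 124 to 180.9 CPM in HuMgat2 (log2 difference 0.04, 95% interval -0.58 to 0.66).

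Igfbp1 (ENSMUSG00000020429, chr11:7147782-7152546, plus strand) encodes a secreted binding protein of insulin-like growth factors that rises in fasting and is lowered by insulin. WT livers held 27.31, 32.76, 36.09 and 59.91 CPM on chow and 21.35, 25.54, 26.38 and 54.97 CPM on HFD, the last in library 4. HuMgat2 livers held 29.89, 66.58, 15.63 and 40.45 CPM on chow and 20.39, 8.233, 10.76 and 24.07 CPM on HFD. The diets overlapped within each genotype, and the genotypes overlapped on each diet. Its coefficient of variation within groups was 36.9% to 56.4%. The HuMgat2 diet difference, -1.27 ± 0.42 on the log2 scale, missed the threshold (adjusted p = 0.0547). It passed in 5 of 25 alternatives, among them the fits without WT HFD library 4 (adjusted p = 0.0235), HuMgat2 chow library 15 (0.0229) or HuMgat2 HFD library 12 (0.0451). On HFD the genotypes differed by -1.0 ± 0.42 (adjusted p = 0.117), and by -0.62 without library 4.

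Igfbp2 (ENSMUSG00000039323, chr1:72863662-72891633, plus strand), a related binding protein made mostly in liver, had the largest log2 change of the 9 genes with HFD in HuMgat2 liver and between genotypes on HFD. HuMgat2 livers held 119.3, 122, 104.7 and 125 CPM on chow and 39.31, 26.25, 24.96 and 27.87 CPM on HFD, with a wide gap between the diets. The fall was 3.98-fold (log2 change -1.99 ± 0.26, adjusted p = 8.97e-05). WT livers held 168.1, 168.9, 203.5 and 127 CPM on chow and 148.1, 168.2, 177.7 and 59.03 CPM on HFD. Library 4 held the low value, and the WT diet difference was -0.27 ± 0.25 (adjusted p = 0.513) with it and -0.02 without it.

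HuMgat2 livers on HFD had 4.68-fold less Igfbp2 than WT livers (log2 change -2.23 ± 0.26, adjusted p = 4.06e-05), and -2.47 on the log2 scale without library 4. On chow all 4 HuMgat2 livers lay below all 4 WT livers, by as little as 125 against 127 CPM, but the difference of -0.50 ± 0.25 was not called (adjusted p = 0.482). The diet effects differed by -1.72 ± 0.35 (adjusted p = 0.00977), a call kept in 24 of 24 alternatives.

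Around the 9 genes, 7 lists of pathway genes were read in the same fit, and each count leaves the 9 genes out. The background for the counts of every list below is the share of all tested genes called. It was 8.37% higher and 6.74% lower in WT on HFD, and 7.56% and 6.4% in HuMgat2 on HFD. For HuMgat2 against WT on HFD it was 7.21% higher and 7.56% lower. Among 21 further genes that relay the insulin signal, 0 were higher and 3 lower in WT on HFD (median log2 change -0.10, against 0.03 over all tested genes). These were Sos1 (-0.45, adjusted p = 0.00599), Rps6kb1 (-0.39, 0.00736) and Foxo4 (-0.35, 0.0199). HuMgat2 liver on HFD had 3 higher and 1 lower (median -0.04, against -0.01). The kinase Mtor rose 1.57-fold (adjusted p = 0.00136), from 64.17 ± 6.68 to 100.7 ± 13.1 CPM, Pik3cb rose 1.53-fold and Pik3r1 1.35-fold, and Rictor, the scaffold of the mTOR complex that phosphorylates AKT, fell 1.39-fold (adjusted p = 0.00494). The level of Mtor on HFD exceeded that of WT liver 1.46-fold, and its diet effect differed between genotypes (log2 difference 0.70, adjusted p = 0.0209). The main AKT of liver, Akt2, was not called in any comparison.

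Among 15 tested inhibitors of the insulin signal, 2 were higher and 3 lower in WT on HFD, against 8.37% and 6.74% of all genes. The higher ones were Grb10 (1.58-fold) and Socs3, a suppressor induced by cytokines. Socs3 averaged 3.774 ± 1.82 CPM with chow and 35.74 ± 53.6 CPM with HFD (adjusted p = 0.00956). Socs3 spread from 5.672 to 116.1 CPM in WT on HFD, the highest in library 4, and without that library its rise was 2.37-fold (adjusted p = 0.0149). The lower ones were Trib3 (2.15-fold), Phlpp2 (1.45-fold) and Phlpp1, the last not called without library 4. The same diet in HuMgat2 went with 1 higher and 2 lower, against 7.56% and 6.4% of all genes. The 2 lower were Ceacam1 (1.42-fold) and Phlpp1 (1.25-fold). Without library 4 these counts were 1 and 5, the further lower genes being Grb14, Trib3 and Socs3. Compared on HFD, Socs3 was lower in HuMgat2, at 3.994 ± 0.171 CPM, by 8.78-fold (adjusted p = 0.0104) and by 2.24-fold without library 4 (adjusted p = 0.0215).

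Of 15 further gluconeogenic enzymes and carriers, 2 were higher and 0 lower in WT on HFD (median log2 change 0.22), against 8.37% and 6.74% of all genes. The 2 were the aminotransferases Got1 (1.99-fold) and Gpt (1.28-fold). HuMgat2 liver had 5 higher and 0 lower on HFD (median 0.30), against 7.56% and 6.4% of all genes. Fbp1, fructose-1,6-bisphosphatase, rose 1.87-fold from 437.3 ± 81.4 to 816.5 ± 121 CPM (adjusted p = 0.000652). Gpd1 rose 1.76-fold, the glycerol kinase Gk 1.63-fold, the pyruvate carrier Mpc1 1.5-fold, and Ldha was also called. Pck1 was thus the only gene of this list of 18 called lower in HuMgat2 on HFD, while 6 were called higher. G6pc, Got1 and Gpt also had lower means on HFD there but were not called. Without library 4, 9 of the 18 were called in either direction. On HFD Fbp1 (1.95-fold), Gpd1 (1.91-fold) and Mdh2 (1.35-fold) were higher and Pck2, the mitochondrial counterpart of Pck1, was lower by 2.05-fold in HuMgat2, at 1.542 ± 0.382 against 3.213 ± 0.817 CPM.

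Of 17 further regulators of gluconeogenesis, 0 were higher and 2 lower in WT on HFD, against 8.37% and 6.74% of all genes. The 2 were Hnf4a (1.46-fold) and Prkaa1 (1.39-fold). In HuMgat2 on HFD 1 was higher, Sik2, and 5 were lower (median log2 change -0.18), against 7.56% and 6.4% of all genes. The lower ones were Klf15 (1.57-fold), Sirt1 (1.46-fold), Crtc2, the coactivator of CREB (1.46-fold), Hnf4a (1.4-fold) and Creb1. Scaled by library totals none of these 5 was called in HuMgat2. Ppargc1a, a coactivator of Pck1 and G6pc, and the glucagon receptor Gcgr were not called in any comparison, with log2 diet effects of 0.03 and 0.08 in HuMgat2.

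Glycolysis, which opposes gluconeogenesis at its regulated steps, and glycogen metabolism were read through 23 genes. In HuMgat2 on HFD 10 of 23 were higher and 1 lower (median log2 change 0.51, against -0.01 over all genes), led by Pklr, liver pyruvate kinase (4.53-fold, from 124.7 ± 29.8 to 564.7 ± 117 CPM, adjusted p = 0.000149) and Gpi1 (2.54-fold). The lower gene was Ppp1r3c, a glycogen-targeting phosphatase subunit (3.04-fold), which fell in WT on HFD too (4.24-fold). In WT on HFD 1 of 23 was higher, Pfkfb1 (2.05-fold), and 2 were lower, and without library 4 these counts were 6 and 2. On HFD 12 of 23 were higher and 0 lower in HuMgat2 than in WT (median 0.51, against -0.04), and 11 and 2 without library 4.

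Pdk4, a brake on pyruvate dehydrogenase that FOXO proteins raise, moved in opposite directions. It fell 2.64-fold on HFD in WT (from 8.354 ± 3.35 to 3.143 ± 0.609 CPM, adjusted p = 0.00205) and rose 2.24-fold in HuMgat2 (from 7.197 ± 1.8 to 16.17 ± 0.647 CPM, adjusted p = 0.00389), and the diet effects differed (log2 difference 2.56, adjusted p = 0.000527). In a list of 12 FOXO1 targets that holds Irs2, Igfbp1, Pck1, G6pc and Insr, Pdk4 thus went opposite to Irs2 and Pck1 in HuMgat2 liver. Of the 7 targets outside the 9 genes, 1 was higher and 1 lower in WT on HFD (Sesn3 and Pdk4) and 1 higher and 1 lower in HuMgat2 (Pdk4 and Cdkn1b). Over all genes the shares were 8.37% and 6.74% in WT, and 7.56% and 6.4% in HuMgat2.

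Of all genes, 8.37% were higher and 6.74% lower in WT on HFD, and 7.56% and 6.4% in HuMgat2. Among 9 further tested insulin-like growth factor genes, 0 were called in WT on HFD, and in HuMgat2 0 were higher and 1 lower. This was Igf1 (1.44-fold, from 868.7 ± 94.4 to 605.3 ± 122 CPM, adjusted p = 0.0264). Without library 4, Igfbp3 and Igfbp7 were also called in HuMgat2, both higher. In WT, where chow livers averaged 638.7 ± 44.3 CPM of Igf1 and HFD livers 823.1 ± 108 CPM, the difference did not pass the test (adjusted p = 0.108), and the diet effects differed by -0.89 on the log2 scale (adjusted p = 0.022). Of 8 lipogenic genes that insulin induces, 4 were higher and 0 lower in WT on HFD (median log2 change 1.09) and 5 and 0 in HuMgat2 (median 1.4). Srebf1, the lipogenic transcription factor, rose 2.63-fold in WT, and Fasn, fatty acid synthase, 3.23-fold in HuMgat2. Without library 4 all 8 were called higher in WT and 7 in HuMgat2.

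**Figure D4:**
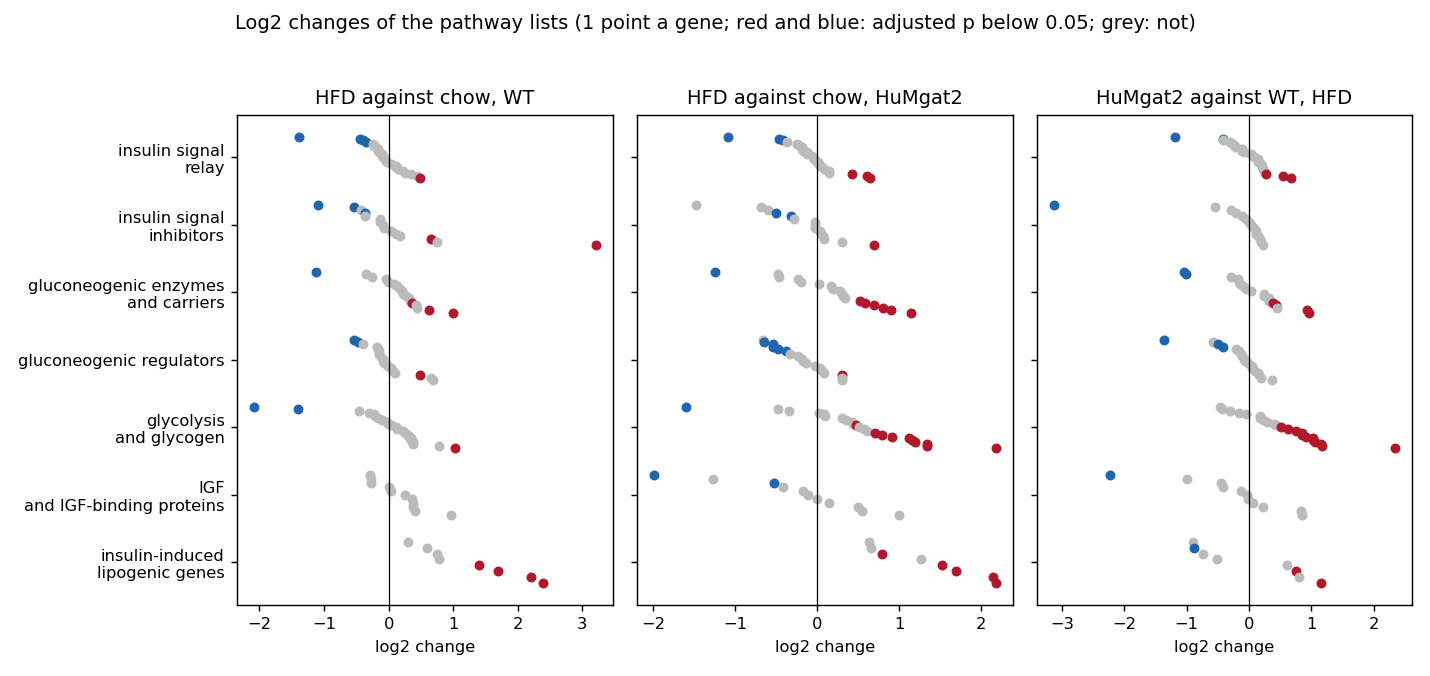
Log2 changes (x axes) of every tested gene of 7 pathway lists (rows), the 9 genes included, for HFD against chow in WT, HFD against chow in HuMgat2 and HuMgat2 against WT on HFD; each point is 1 gene, red called higher, blue called lower and grey not called. In HuMgat2 on HFD the glycolysis and glycogen row has 10 red points and 1 blue point, and the row of gluconeogenic enzymes 6 red points and 1 blue point, which is Pck1.

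Genes of other systems moved in the same comparisons, and their part in the results above was not tested. Of 13 circadian clock genes, 6 were higher and 4 lower in WT on HFD, against 8.37% and 6.74% of all genes. In HuMgat2 on HFD 2 were higher and 2 lower, against 7.56% and 6.4% of all genes, or 3 and 4 without library 4. Per3 rose 3.53-fold and Arntl fell 4.36-fold in WT. Of 10 genes induced by glucocorticoids, 3 were higher and 3 lower in WT on HFD. The higher ones were Mt2, Mt1 and Fkbp5, of which Mt1 and Mt2 were not called without library 4. In HuMgat2 0 were higher and 2 lower, Dusp1 (3.87-fold) and Tat (2.85-fold). Without library 4, 1 was higher and 2 lower in WT and 1 higher and 3 lower in HuMgat2. The summed level of these 10 genes was 2382 to 2916 CPM in HuMgat2 on chow and 1356 to 1839 CPM on HFD. Tat alone averaged 1127 CPM and 395.3 CPM in these 2 groups. In WT the sum was 2181 to 2508 CPM on chow and 1592 to 3399 CPM on HFD.

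Markers of other liver cells also moved, and the same shares of all genes are the background for their counts. Stellate cell markers were higher in HuMgat2 on HFD for 6 of 8 genes, with sums of 261.3 to 432.2 CPM on chow and 478.6 to 559.6 CPM on HFD, and 0 of 8 were called in WT. Macrophage markers were higher in WT on HFD for 5 of 8 genes, or 2 of 8 without library 4, with sums of 115.2 to 211 CPM on chow and 166.3 to 623.4 CPM on HFD. In HuMgat2 0 of 8 macrophage markers were called, or 3 of 8, all higher, without library 4. Of 7 hepatocyte markers, 0 were called in WT on HFD and 2 were lower in HuMgat2, Cps1 and Serpina1c. In WT the 7 markers summed to 84280 to 99520 CPM on chow and 46520 to 75920 CPM on HFD, without overlap. In HuMgat2 they summed to 76560 to 100800 CPM on chow and 67990 to 80570 CPM on HFD, with overlap. Of 8 endothelial markers Lyve1 alone was higher on HFD in each genotype. Among 5 tested cholangiocyte markers Spp1 was called higher in both genotypes, but not in WT without library 4. Sox9 was called lower in HuMgat2 on HFD, where the median log2 change of the 5 was -0.46. Of 5 tested lymphocyte and neutrophil markers 2 were higher in WT and 0 were called in HuMgat2, and without library 4 1 was higher in WT and 1 lower in HuMgat2. The 8 adipocyte and pancreas markers summed to 0.136 to 0.6015 CPM in WT on chow and 0.3972 to 130.3 CPM on HFD, of which Cfd alone passed the filter on low counts.

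The genes whose levels ran most like each of the 9 were taken from 9600 genes. Likeness was Pearson's r of log2 levels across the 16 libraries. These libraries differ in genotype and diet, so the values describe likeness alone. Igfbp2 ran with Gm3734 (0.969), Hsd3b5 (0.957) and Cdh1 (0.957), and Pcx with Tlr12 (0.986), 2010003K11Rik (0.966) and Themis (0.956). Irs1 ran with Tuba4a (0.956), Ugt2b5 (0.946) and Plekhb1 (0.94). Irs2 ran with Rapgef4 (0.907) and Taf2 (0.904), and Pck1 with Tat (0.899) and Prdx4 (0.895). Likeness was weaker for Insr with Togaram1 (0.884), G6pc with Hcfc2 (0.86), Foxo1 with Rhobtb1 (0.855) and Igfbp1 with Zbtb39 (0.836).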

How the data were processed

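Liver total RNA, depleted of ribosomal RNA and with a RIN above 7, was sequenced from 15 mg of tissue per mouse, per the labels' protocols. The authors deposited raw counts of read pairs per gene name, made with featureCounts 2.0.1 on GRCm39 with Ensembl 103 and with no strand setting, per the file headers; alignment was with STAR 2.7, per the submitters' processing notes. Exon length, the other column used, is also as deposited. Pairs that map to several places or genes were not counted, so shared exons lose counts. The 64 records are 4 per library, and each of the 16 libraries was used once, 4 per group; nothing states that libraries are separate animals beyond their numbers, so p-values measure the spread between libraries.

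Counts were analysed with edgeR 4.0.16 in R 4.3.3 (filterByExpr, TMM, glmQLFit with 1 mean per group over 16 libraries, glmQLFTest, two-sided, adjusted p below 0.05), checked on simulated counts. Rerun alternatives were other scalings, filters, DESeq2 1.42.0, limma 3.58.1, and leaving out each library. FPKM used exon bases shared with no other gene. All 9 genes were named in each comparison; of each list up to 4 further called genes with the largest log2 changes at a mean of at least 1 CPM were named, others by name as members of small counts or, for Akt2, Gcgr and Ppargc1a, after their values were seen. The 9 genes and the lists were chosen with earlier results of these data known. Some genes that this rule selects are not reported here.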

Additional observations from a re-analysis of the deposited data

Results flagged for a closer look

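Within groups, 2 of 36 sets of 4 libraries held a value far from the other 3, where chance alone gives about 1 in 20. Irs1 in HuMgat2 on HFD stood at 49.35 CPM in library 10, with a gap of 0.862 of the group's range, and Igfbp1 in WT on HFD stood at 54.97 CPM in library 4, with a gap of 0.85. Without WT HFD library 4 the log2 diet effect of Igfbp1 in WT was -0.67 (adjusted p = 0.293) in place of -0.29.

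The diet effect differed between genotypes by edgeR's test of the difference for 4 genes, given as the log2 effect in HuMgat2 minus that in WT. The differences were 0.97 for Irs1, -1.24 for Irs2, -1.72 for Igfbp2 and -1.24 for Pck1, the last called in 12 of 24 alternatives. Every HuMgat2 library on HFD was below every HuMgat2 library on chow for these 4 genes, whereas in WT the diets overlapped for Irs2, Igfbp2 and Pck1.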

How the results depend on the processing

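No paired analysis was possible because the libraries carry different numbers in each group. Of 1116 refits of single log2 changes of the 9 genes, 1051 kept direction and call, 36 lost a call, 10 gained one and 19 changed sign, each of the last between values that were not called. Library totals in place of TMM moved the median log2 change of all genes by 0.24 for HFD in HuMgat2, 0.17 for genotype on HFD, -0.15 for genotype on chow and 0.33 for the difference of diet effects. They raised the genes called to 3733 from 2418 for HFD in HuMgat2 (89.1% of them higher, against 54.1%) and to 2303 from 844 for the difference of diet effects (91% higher, against 53.6%); the share called higher was 81.5% against 48.8% for genotype on HFD, 37.9% against 55.4% for HFD in WT and 30.7% against 52.3% for genotype on chow. With that scaling the sign turned for Insr in HuMgat2 on HFD (0.191) and in the difference of diet effects (0.154), Irs2 between genotypes on chow (-0.095) and Foxo1 between genotypes on HFD (0.068). DESeq2 called 236 genes between genotypes on chow, against 88. limma called 3944 for HFD in WT, against 2617, 135 for genotype on chow, 4323 for genotype on HFD, against 2558, and 1391 for the difference of diet effects, and turned Insr in WT on HFD (-0.016) and G6pc between genotypes on HFD (-0.094). A fit of the 2 groups alone called 1452 for HFD in WT. The cause of these differences was not tested.

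Leaving out 1 library at a time, the number of the 9 genes called for HFD in WT was 2 (without WT chow library 6) to 4. All genes called ranged from 1673 (without WT chow library 5) to 2670 for HFD in WT, from 53 (without WT chow library 5) to 204 (without WT HFD library 4) for genotype on chow, from 1585 (without HuMgat2 HFD library 10) to 2711 for genotype on HFD and from 529 (without WT chow library 5) to 1129 for the difference of diet effects. Signs turned for Insr (-0.015 to 0.177) and Pck1 (-0.156 to 0.075) in WT on HFD, Foxo1 in HuMgat2 on HFD (-0.083 to 0.138), Irs2 (-0.041 to 0.161) and Igfbp1 (-0.442 to 0.257) between genotypes on chow, and G6pc between genotypes on HFD (-0.077 to 0.21). The lowest count of the 9 genes in a library was 186 (Igfbp1, HuMgat2 HFD library 10), so spread between libraries rather than counting sets the precision, and the 95% intervals of Igfbp1 and G6pc span more than a doubling.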
